A study of Mus musculus with 9 samples.

Results

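The 10 genes described here are Malat1 and Neat1, 2 long noncoding RNAs of the cell nucleus, and 8 host genes of small nucleolar RNAs (snoRNAs): Gas5, Snhg1, Snhg3, Snhg5, Snhg6, Snhg8, Snhg12 and Zfas1. They were found by symbol among the 53801 genes of the count table, and all 10 passed the filter on low counts that left 22452 genes for testing. The 9 libraries came from cultured mouse spermatogonial stem cells (SSCs) of Prmt5 flox/flox; Rosa26-CreERT2 mice, in which Cre is driven from a ubiquitous locus and was switched on in vitro by 1 µM 4-hydroxytamoxifen (4OHT), to delete Prmt5 in every group. PRMT5 is an arginine methyltransferase. The 3 groups held 3 libraries each: 4OHT alone, 4OHT with the added PRMT5 abbreviated MU, and 4OHT with the added PRMT5 abbreviated OE. From the study's methods MU was read as PRMT5 with a mutation in its catalytic site and OE as wild-type PRMT5. The ethanol-treated cells that keep Prmt5 were not analysed here. Nothing in the sources used here says whether the libraries of a group came from separate cultures, so p-values measure only the spread between these libraries, which may be technical.

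MALAT1 RNA collects in nuclear speckles, bodies rich in splicing factors, and its 3′ end is protected by a triple helix in place of a poly(A) tail. NEAT1 RNA is the scaffold on which the proteins of paraspeckles assemble. The host genes carry snoRNAs in their introns: splicing releases an intron, exonucleases trim it, and the snoRNA guides the methylation or pseudouridylation of ribosomal RNA, while the spliced host RNA of several of these genes is exported and removed by nonsense-mediated decay. Many host genes start transcription with a C followed by a run of pyrimidines, the 5′ terminal oligopyrimidine (TOP) tract also found in genes for ribosomal proteins.

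The annotated starts are shown because that tract is a sequence feature that the choice of genes did not use. RefSeq promoter entries on GRCm38.p6 matched 8 of the 10 genes, with 9 starts. Neat1 and Snhg6 are named only. Each sequence below runs from 10 bases before the start through the first 20 bases of the transcript, 5′ to 3′ on the strand of the gene, and capitals mark a C followed by at least 4 bases that are each C or T.
Malat1 (chr19:5802653-5802682, minus strand): ggctctgcgtcaggcattcaggcagcgaga
Gas5, first start (chr1:161034591-161034620, plus strand): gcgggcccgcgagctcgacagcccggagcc
Gas5, second start (chr1:161035156-161035185, plus strand): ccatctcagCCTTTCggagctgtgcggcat
Snhg1 (chr19:8723477-8723506, plus strand): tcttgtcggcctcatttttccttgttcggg
Snhg3 (chr4:132353667-132353696, minus strand): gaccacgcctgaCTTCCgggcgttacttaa
Snhg5 (chr9:88522878-88522907, minus strand): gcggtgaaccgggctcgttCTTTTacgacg
Snhg8 (chr3:123508317-123508346, minus strand): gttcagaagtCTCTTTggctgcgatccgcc
Snhg12 (chr4:132308668-132308697, plus strand): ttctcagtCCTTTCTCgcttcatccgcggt
Zfas1 (chr2:167062924-167062953, plus strand): tgcgccccgggcggccgcaggtctcggctg
A run stood in 5 of the 9 windows, of 5 genes: Gas5, Snhg3, Snhg5, Snhg8 and Snhg12. Of all 32851 RefSeq promoters, 35.8% held such a run in the same window on the transcribed strand and 40.7% on the opposite strand, so the run is common by its letters alone. The letters CTTT stood in 4 of the 9 windows, of 4 genes, against 11.6% of all promoters on the transcribed strand and 11.3% on the opposite strand. In all 4 of these windows CTTT lay inside the marked run, so this count repeats part of the first one and adds no separate observation. A match is a description of the window and not a mapped start.

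Snord47 and Snord50a are shown as products for which their host genes are transcribed. Both have the layout of box C/D snoRNAs, which guide methylation, and capitals mark TGATGA, the core of box C, and CTGA, box D.
Snord47, within Gas5 (chr1:161038082-161038158, plus strand, GRCm38): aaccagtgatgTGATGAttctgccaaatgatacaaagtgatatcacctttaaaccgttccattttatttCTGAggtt
Snord50a, within Snhg5 (chr9:88521529-88521600, minus strand, GRCm38): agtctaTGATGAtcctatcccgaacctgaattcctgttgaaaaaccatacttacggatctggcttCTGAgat
The GENCODE vM21 annotation placed 32 snoRNA genes of 60 to 205 bases within the 8 host genes, on the same strand. Gas5 held 10 of them, Snhg1 held 8, Snhg12 held 5, Zfas1 held 3, Snhg3 and Snhg5 held 2 each, and Snhg6 and Snhg8 held 1 each. These are annotated genes: Snord80 within Gas5 and Snora16a within Snhg12 each have 2 identifiers at overlapping positions. In these libraries, made from size-selected fragments of messenger RNA, 27 of the 32 snoRNA genes had at most 3 counts in every library, and the highest count of any of them was 45 (Snord87, within Snhg6). Many, Snord47 and Snord50a among them, had exactly 1 count in every library whatever its depth, so that value may not be a measured level. Levels of the host transcripts therefore say nothing here about levels of the snoRNAs.

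The libraries held from 78751996 to 95370711 counts in the 4OHT group, from 192033300 to 365719548 in the MU group and from 79941857 to 154557863 in the OE group, so the MU libraries were the deepest. Prmt5 separated the groups: it stood between 28.2 and 31.9 CPM, the usual scale of counts relative to library size, in the 4OHT libraries, between 145 and 147 CPM in the MU libraries and between 1071 and 1085 CPM in the OE libraries. MU thus had 13.6% of the Prmt5 RNA level of OE, and the mutation and this difference in RNA level cannot be told apart in a comparison of MU with OE. For the protein, the study reports by western blot that wild-type and mutant PRMT5 each restored its level. Protein was not measured in these libraries. The germ cell markers were detected in every library, with a summed level of 2392 to 2408 CPM over 8 markers in the 4OHT group, 3782 to 3889 CPM in MU and 4044 to 4108 CPM in OE. By the test across all genes, 7 of the 8 were higher and 1 was lower in MU than in 4OHT, with the same numbers in OE. The lower one in both was Zbtb16, the gene of PLZF, at mean levels of 291 CPM in 4OHT, 183 CPM in MU and 200 CPM in OE. Markers of other cells moved with the groups as well. SSCs are grown on feeder fibroblasts, and the summed level of 10 fibroblast markers ran from 5728 to 6616 CPM in 4OHT, from 3648 to 3686 CPM in MU and from 2771 to 2846 CPM in OE. The summed level of 10 macrophage markers ran from 170 to 188 CPM in 4OHT, from 1138 to 1171 CPM in MU and from 2213 to 2338 CPM in OE. In bulk RNA, fewer cells of a type and less RNA per cell cannot be told apart.

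The 10 genes were selected on their CPM in these same 3 groups. Their levels and differences are therefore given as a description, with no p-value for any of them, and where they are counted against the threshold of the fit the count is a description too. CPM are scaled by the trimmed mean of M-values (TMM) of edgeR, and log2 fold changes come with the standard error (SE) of 1 edgeR fit over all genes and libraries. Across all genes tested the median log2 fold change was 0.04 for MU against 4OHT, 0.02 for OE against 4OHT and 0.01 for MU against OE.

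**Figure D1:**
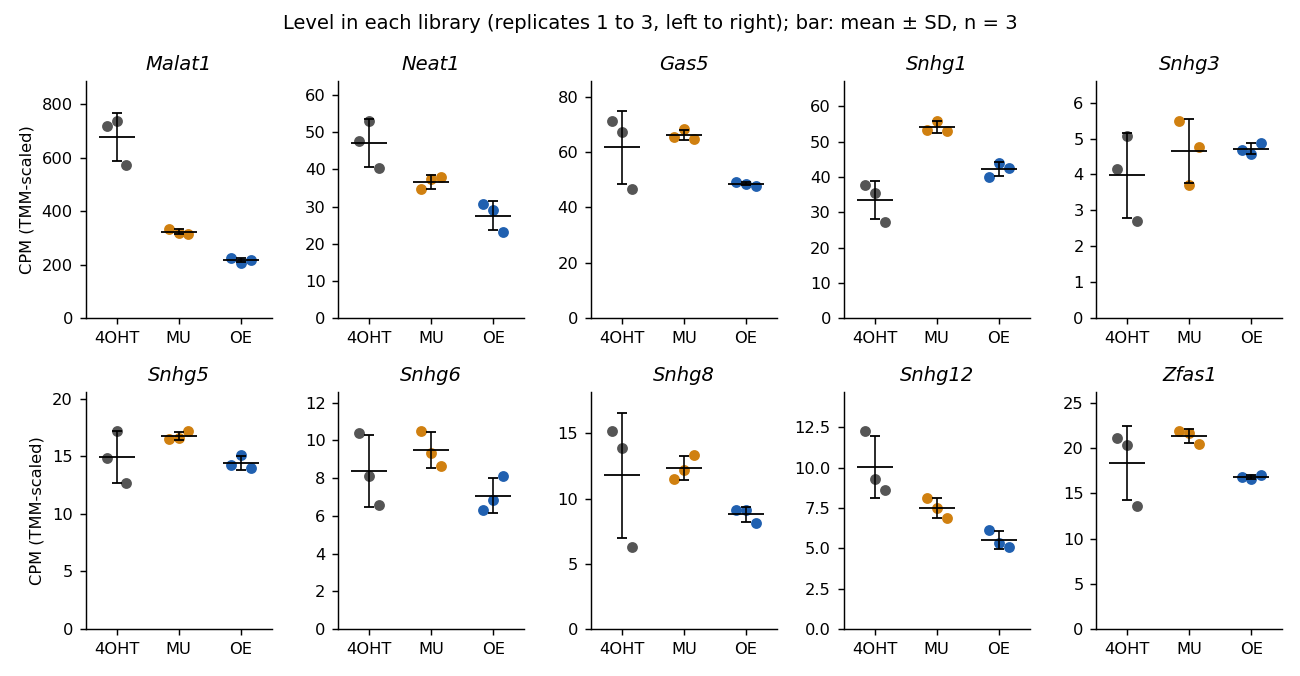
Level of each of the 10 genes in CPM (vertical axes, each starting at 0) in the 3 libraries of the 4OHT, MU and OE groups, with replicates 1 to 3 from left to right and a bar for the mean ± SD. Malat1, Neat1 and Snhg12 step down from 4OHT through MU to OE, Snhg1 is highest in MU, and 4OHT replicate 3 is the lowest of its group in every panel.

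Malat1, transcribed from chr19:5795690-5802672 (minus strand, GRCm38) as a single exon of 6.98 kb, stood at 717, 738 and 573 CPM in the 4OHT libraries, at 334, 319 and 315 CPM in MU, and at 225, 208 and 219 CPM in OE. The 3 groups did not overlap in any pair, and the spread within MU and OE was small (CV of 3.14% and 3.90%, against 13.3% in 4OHT). The log2 fold change was -1.07 ± 0.078 (SE, n = 3 per group) for MU against 4OHT, -1.64 ± 0.080 for OE against 4OHT and 0.57 ± 0.078 for MU against OE. MU libraries thus kept 47.7% of the mean 4OHT level and OE libraries 32.1%. How messenger RNA was selected for the libraries is not given in the sources used here. Whether this RNA without a poly(A) tail was recovered alike in all libraries was not tested.

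Neat1 lies next to Malat1, at chr19:5824708-5845478 on the same strand, with 20.8 kb of exonic sequence. Its levels were 47.8, 53.1 and 40.3 CPM in 4OHT, 34.6, 37.4 and 37.9 CPM in MU, and 30.6, 29.0 and 23.2 CPM in OE. The order of the groups was that of Malat1, again with no overlap between any pair, but the steps were smaller. The log2 fold change was -0.36 ± 0.106 for MU against 4OHT, -0.77 ± 0.108 for OE against 4OHT and 0.41 ± 0.106 for MU against OE. Short noncoding genes annotated inside Malat1 and Neat1 on the same strand had mean levels of at most 0.0121 CPM in any group. That is the 4OHT mean of snoRNA genes with exactly 1 count in every library, so it may not be a measured level.

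Among the host genes, Snhg12 (chr4:132308623-132311024, plus strand) was the only one to step down from 4OHT through MU to OE without overlap. It stood at 12.3, 9.29 and 8.62 CPM in 4OHT, at 8.12, 7.48 and 6.87 CPM in MU, and at 6.12, 5.32 and 5.06 CPM in OE. Its log2 fold change was -0.42 ± 0.135 for MU against 4OHT, -0.87 ± 0.139 for OE against 4OHT and 0.45 ± 0.137 for MU against OE.

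Snhg1 (chr19:8723475-8726443, plus strand), the host of 8 snoRNAs, went the other way. It stood at 37.6, 35.6 and 27.4 CPM in 4OHT, at 53.2, 56.0 and 52.9 CPM in MU, and at 40.0, 43.9 and 42.6 CPM in OE. All 3 MU libraries lay above all OE libraries, and all OE libraries above all 4OHT libraries. The log2 fold change was 0.69 ± 0.094 for MU against 4OHT, 0.33 ± 0.094 for OE against 4OHT and 0.36 ± 0.093 for MU against OE. It was the only one of the 10 genes that was higher without overlap in both groups with added PRMT5 than in 4OHT.

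Gas5 (chr1:161034422-161038539, plus strand), named for its accumulation in growth-arrested cells and the host of 10 annotated snoRNA genes, stood at 71.4, 67.1 and 46.8 CPM in 4OHT, at 65.4, 68.2 and 64.8 CPM in MU, and at 49.1, 48.6 and 47.9 CPM in OE. The MU and OE libraries were tight (CV of 2.75% and 1.21%) and did not overlap, whereas the 4OHT libraries spread over both (CV of 21.3%). The log2 fold change was 0.45 ± 0.112 for MU against OE, 0.10 ± 0.112 for MU against 4OHT and -0.35 ± 0.113 for OE against 4OHT. Without 4OHT replicate 3 the latter values were -0.06 and -0.51, so the sign of the MU difference from 4OHT turned on 1 library.

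Zfas1 (chr2:167062934-167065862, plus strand), the host of 3 snoRNAs, had the pattern of Gas5. It stood at 21.1, 20.4 and 13.6 CPM in 4OHT, at 21.9, 21.7 and 20.5 CPM in MU, and at 16.8, 16.6 and 17.1 CPM in OE, with a log2 fold change of 0.34 ± 0.125 for MU against OE. MU and OE did not overlap, and 4OHT replicate 3 alone lay below OE. Zfas1 shares 82 exonic bases with Znfx1 on the opposite strand, a gene with mean levels of 206, 275 and 296 CPM in 4OHT, MU and OE. Since the strand setting of the counting is not given in the sources used here, reads in those bases cannot be assigned to either gene.

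Snhg8 (chr3:123507552-123508404, minus strand) stood at 15.2, 13.9 and 6.28 CPM in 4OHT, at 11.5, 12.2 and 13.3 CPM in MU, and at 9.14, 9.15 and 8.14 CPM in OE. Its 4OHT group had the widest spread of the 10 genes, with a CV of 40.8%, and its log2 fold change for MU against OE was 0.49 ± 0.226. For MU against 4OHT its log2 fold change was 0.07 ± 0.225, and -0.23 without 4OHT replicate 3.

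Snhg5 (chr9:88521050-88522929, minus strand) ranged from 12.7 to 17.2 CPM in 4OHT, from 16.5 to 17.2 CPM in MU and from 14.0 to 15.1 CPM in OE. Its difference between MU and OE was the smallest among the genes without overlap, at 0.22 ± 0.097 on the log2 scale. Snhg6 (chr1:9941959-9944118, minus strand) ranged from 6.58 to 10.4 CPM in 4OHT, from 8.64 to 10.5 CPM in MU and from 6.29 to 8.12 CPM in OE, with a log2 fold change of 0.42 ± 0.153 for MU against OE. It shares 127 exonic bases with Mcmdc2 on the opposite strand, which had mean levels of 0.908 to 2.10 CPM.

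Snhg3 (chr4:132348014-132353686, minus strand) was the only one of the 10 whose MU and OE libraries overlapped. It stood at 4.15, 5.07 and 2.70 CPM in 4OHT, at 5.50, 3.72 and 4.75 CPM in MU, and at 4.69, 4.57 and 4.88 CPM in OE. The log2 fold change for MU against OE was -0.02 ± 0.199, and no pair of groups was apart. Its count is also the least certain: 135 of its exonic bases are shared with Rcc1 on the same strand, at mean levels of 76.9 to 91.0 CPM, and 705 with the noncoding Gm17300 on the opposite strand.

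**Figure D2:**
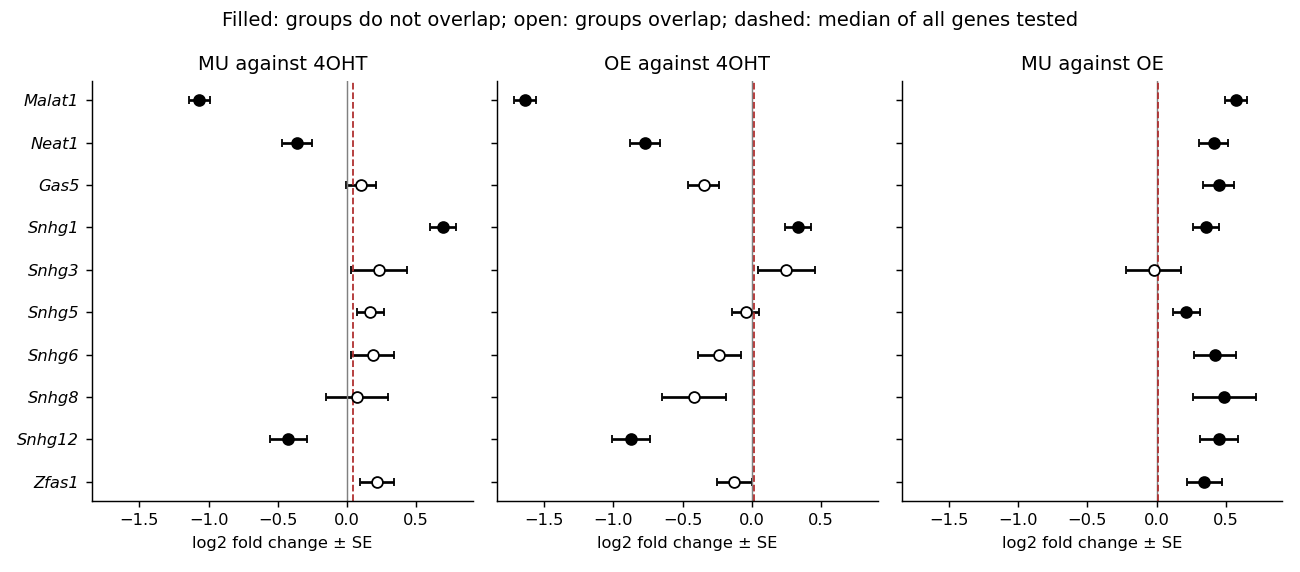
Log2 fold change ± SE (horizontal axes) of the 10 genes in the 3 comparisons, with filled points where the groups do not overlap, open points where they do, and a dashed line at the median of all genes tested. For MU against OE 9 of the 10 points are filled and lie to the right, while against 4OHT the genes lie on both sides.

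Counted over the 10 genes, MU lay above OE without overlap for 9 and below for 0, where over all genes tested 13.0% were higher and 12.8% lower without overlap. The median log2 fold change of the 10 genes was 0.42 for MU against OE. In the edgeR fit Malat1 and Gas5 were past an adjusted p of 0.05, both higher in MU, where 2.12% of all genes were called higher and 1.06% lower, and since the choice of genes used these values nothing is read from this count. It moved with the fit, as did the share of all genes, which was 3.17% in the reported fit. The count was 6 without 4OHT replicate 3, where 5.37% of all genes were called. It was 8 when only the MU and OE libraries were fitted, where 7.24% were. Without any 1 of the MU or OE libraries it was 1, where 1.79% to 2.31% of all genes were called.

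For MU against 4OHT, 1 gene was higher (Snhg1) and 3 were lower (Malat1, Neat1 and Snhg12) without overlap, against 33.8% and 30.1% of all genes. The same 4 genes were past the threshold, where 29.5% of all genes were called higher and 26.5% lower. This split of 1 higher and 3 lower was 3 and 1 with scaling by total counts only, where 35.5% of all genes were called higher and 22.4% lower. It was 3 and 2 without 4OHT replicate 1 (all genes 29.5% and 26.0%) and 2 and 2 without 4OHT replicate 2 (28.1% and 25.0%). For OE against 4OHT, again 1 was higher (Snhg1) and 3 were lower (Malat1, Neat1 and Snhg12) without overlap, against 31.5% and 30.1% of all genes. The threshold was passed by these and by Gas5, where 29.9% of all genes were called higher and 27.9% lower. Since the choice of genes used these values, nothing is read from the counts. Both comparisons share the 4OHT libraries.

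The third 4OHT library stood apart for these genes. It was the lowest of its group for 10 of the 10 genes, whereas it was the lowest for 32.3% of all genes tested, and it had the most counts of the 4OHT libraries. The median CV of the 10 genes within the 4OHT group was 20.3%, against 7.84% for all 13148 genes with a mean of at least 3 CPM, while in MU the values were 4.18% against 3.34% and in OE 4.44% against 4.43%. The same library had the lowest summed level of the 13 mitochondrially encoded messenger RNAs in the series, 13402 CPM against 18865 and 16248 CPM in the other two 4OHT libraries, and the highest summed level of fibroblast markers. Without it, 8 of the 10 genes were past the threshold for OE against 4OHT, 1 higher and 7 lower, where 30.7% of all genes were called higher and 27.7% lower. For Gas5, Snhg6, Snhg8 and Zfas1 the other two 4OHT libraries lay above all 3 OE libraries. 

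**Figure D3:**
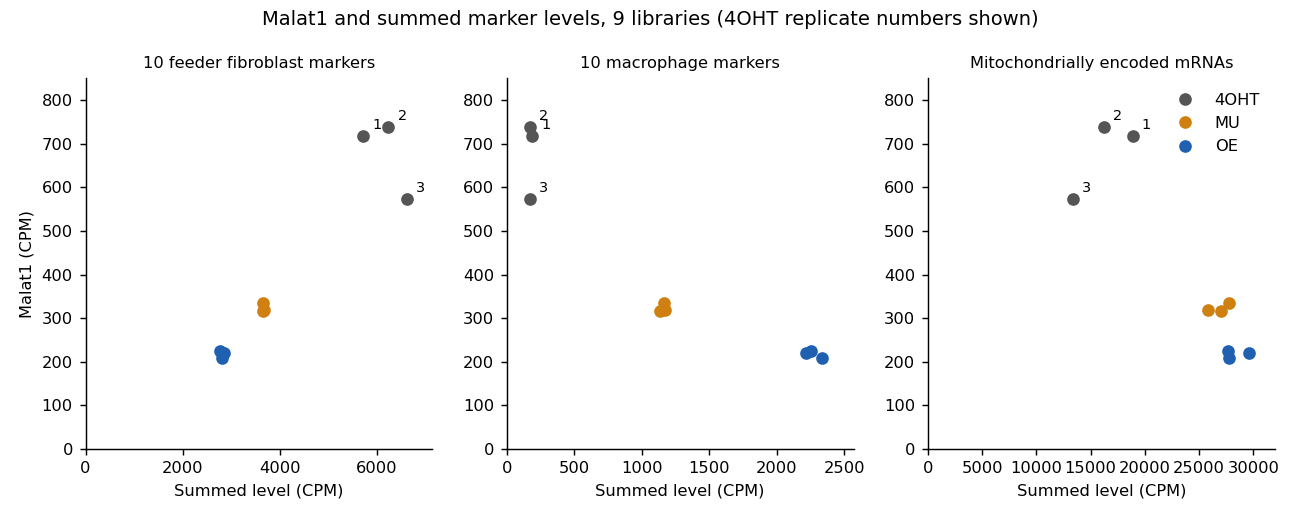
Malat1 level in CPM (vertical axis) against the summed level in CPM of feeder fibroblast markers, macrophage markers and mitochondrially encoded messenger RNAs (horizontal axes) in the 9 libraries, with replicate numbers beside the 4OHT points. Malat1 falls from 4OHT through MU to OE while the fibroblast sum falls and the macrophage sum rises without overlap, the mitochondrial sums of MU and OE overlap, and within 4OHT the library with the most fibroblast marker signal, replicate 3, has the least Malat1.

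Malat1 and Neat1 followed the same order of groups as the fibroblast markers. Of the 10 fibroblast markers, 9 were lower and 1 was higher in MU than in 4OHT by the test across all genes, 10 were lower in OE than in 4OHT, and 10 were higher in MU than in OE. Their median log2 fold changes were -0.81, -1.17 and 0.38. Malat1 differed by more than this median in all 3 comparisons, and Neat1 by less in both comparisons with 4OHT. Within the 4OHT group the order did not hold, since replicate 3 had the highest fibroblast sum, 6616 CPM, and the lowest Malat1 level. Of the 11 macrophage marker rows tested (Itgam has 2 identifiers, and the second was at 0 in some libraries), 10 were higher in MU and 10 in OE than in 4OHT, and 8 were lower in MU than in OE. The part of these cells in the levels of the 10 genes was not tested.

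Levels of different genes were compared per kilobase of exonic sequence. In 4OHT the order was Malat1 at 96.8 CPM per kb, then Gas5 at 16.4, Snhg8 at 13.8, Snhg1 at 11.3, Snhg5 at 8.62, Snhg6 at 7.30, Zfas1 at 6.27, Snhg12 at 4.19, Snhg3 at 4.03 and Neat1 at 2.27 CPM per kb. Malat1 at the top and Neat1 at the bottom were apart from their neighbours, and every neighbouring pair between Gas5 and Snhg3 overlapped. Since Malat1 lacks a poly(A) tail and the selection of messenger RNA is not described, its level beside the other genes is uncertain. In OE, Malat1 at 31.1 CPM per kb was followed by Snhg1 at 14.2 and Gas5 at 12.9 CPM per kb, and only Snhg6 and Zfas1 overlapped as neighbours. In MU only Snhg1, at 18.2 CPM per kb, and Gas5, at 17.6 CPM per kb, did. Division by the full annotated length can understate Neat1, whose short isoform covers only the 5′ part of the gene. Host genes are affected unequally. The annotated exons of Snhg1, Snhg8, Snhg12 and Zfas1 together cover their whole spans, introns included, which can understate them. Those of Snhg3 cover 986 of 5673 bases. The order of the host genes per kilobase thus depends on the annotation.

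Among 10616 genes with a mean of at least 10 CPM, the gene whose centred log2 levels over the 9 libraries lay nearest to those of Malat1 was Kitl, the ligand of the receptor KIT, with a root mean square difference of 0.0848. Its mean was 21.0 CPM in 4OHT, 9.58 CPM in MU and 6.23 CPM in OE. The next were Gpx8, a peroxidase of the endoplasmic reticulum (0.100), and Cxcl1, a neutrophil chemokine (0.103). Nearest to Neat1 were Copz2, a coat protein of transport vesicles (0.0968), Sgce, a sarcoglycan (0.109), and Ssr4, of the translocon-associated complex (0.127). Nearest to Gas5 was Zfas1 (0.0951), another of the 10 genes, followed by Tmem45a (0.111) and Rabggtb (0.114), a subunit of a prenyltransferase for Rab proteins and itself a snoRNA host.

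The lists that follow were taken from general knowledge of these RNAs, but with earlier results of these data known, so their counts are no independent evidence and are to be read against the shares of all genes called: 29.5% higher and 26.5% lower in MU against 4OHT, 29.9% and 27.9% in OE against 4OHT, and 2.12% and 1.06% in MU against OE. Of 13 noncoding snoRNA hosts listed apart from the 10 genes, 12 were matched in the table and 10 passed the filter, as 11 rows because Dancr has 2 identifiers. In MU against 4OHT, 4 rose and 3 fell, with a median log2 fold change of 0.41, and in OE against 4OHT, 4 rose and 4 fell, with a median of 0.14. Without 4OHT replicate 3 the numbers that fell were 5 and 5, where 26.2% and 27.7% of all genes fell. The largest increase was that of Snhg14, the transcript that carries snoRNAs of the Prader-Willi region, from 4.37 ± 0.81 CPM (SD, n = 3) in 4OHT to 10.1 ± 0.61 in MU (log2 fold change 1.21, edgeR adjusted p = 7.7e-06) and 10.5 ± 1.62 in OE (1.26, edgeR adjusted p = 5.12e-06). Snhg15 fell from 11.1 ± 1.66 CPM to 7.40 ± 0.91 in MU (-0.59, edgeR adjusted p = 0.00127) and 6.36 ± 0.42 in OE (-0.81, edgeR adjusted p = 9.89e-05).

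Between MU and OE, 1 of the 11 rows passed the test, and 2 passed without 4OHT replicate 3, where 5.37% of all genes did. Snhg11 was at 76.2 ± 3.78 CPM in MU and 51.3 ± 2.24 CPM in OE, against 33.7 ± 1.36 CPM in 4OHT, with a log2 fold change of 0.57 for MU against OE (edgeR adjusted p = 7.06e-05). This is the order of groups seen for Snhg1. The median over the 11 rows was 0.22. Without overlap, 4 were higher in MU and 0 were lower, where 13.0% of all genes tested were higher and 12.8% lower.

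The 33 protein-coding hosts, mostly genes for ribosomal proteins and translation factors, split in both comparisons with 4OHT. In MU against 4OHT, 12 rose and 7 fell, with a median log2 fold change of 0.03, and in OE against 4OHT, 11 rose and 12 fell, with a median of -0.02. Without 4OHT replicate 3, 12 rose and 14 fell in MU and 11 rose and 16 fell in OE. In that fit 30.0% of all genes rose and 26.2% fell in MU, and 30.7% and 27.7% in OE. With scaling by total counts only, 14 rose and 4 fell in MU and 13 rose and 6 fell in OE. All genes tilted the same way with that scaling, with 35.5% higher and 22.4% lower in MU and 34.5% and 24.6% in OE. Without 4OHT replicate 1, 14 rose and 5 fell in MU and 13 rose and 7 fell in OE. In that fit 29.5% of all genes rose and 26.0% fell in MU, and 29.7% and 27.2% in OE. Without 4OHT replicate 2, 12 rose and 5 fell in MU and 11 rose and 7 fell in OE. For all genes the shares were then 28.1% and 25.0% in MU, and 28.5% and 26.2% in OE. The balance of the list thus turned on which library was left out and on the scaling. Rps2, a protein of the small ribosomal subunit, was at 200 ± 26.0 CPM in 4OHT, 1572 ± 36.3 CPM in MU and 1647 ± 66.6 CPM in OE, a log2 fold change of 2.97 and 3.04 (edgeR adjusted p = 3.64e-12 and 1.92e-12). Genes for ribosomal proteins have near-identical processed copies, and how reads with several matches were counted is not given in the sources used here, so the size of this difference is uncertain. Tpt1, a gene for a growth-related calcium-binding protein, was at 1352 ± 163 CPM in 4OHT, 783 ± 16.2 CPM in MU and 710 ± 27.9 CPM in OE (-0.79 and -0.93, edgeR adjusted p = 3.51e-07 and 5.95e-08). Between MU and OE only Taf1d, a subunit of the RNA polymerase I factor SL1, passed, with a log2 fold change of 0.26 (edgeR adjusted p = 0.0233), and it lost the call when any 1 of the MU libraries, or OE replicate 1 or 2, was left out. Without 4OHT replicate 3, 5 of the 33 passed, where 5.37% of all genes did. With only the 6 libraries compared 9 of the 33 passed, where 7.24% of all genes did. The median of the 33 for MU against OE was 0.03.

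**Figure D4:**
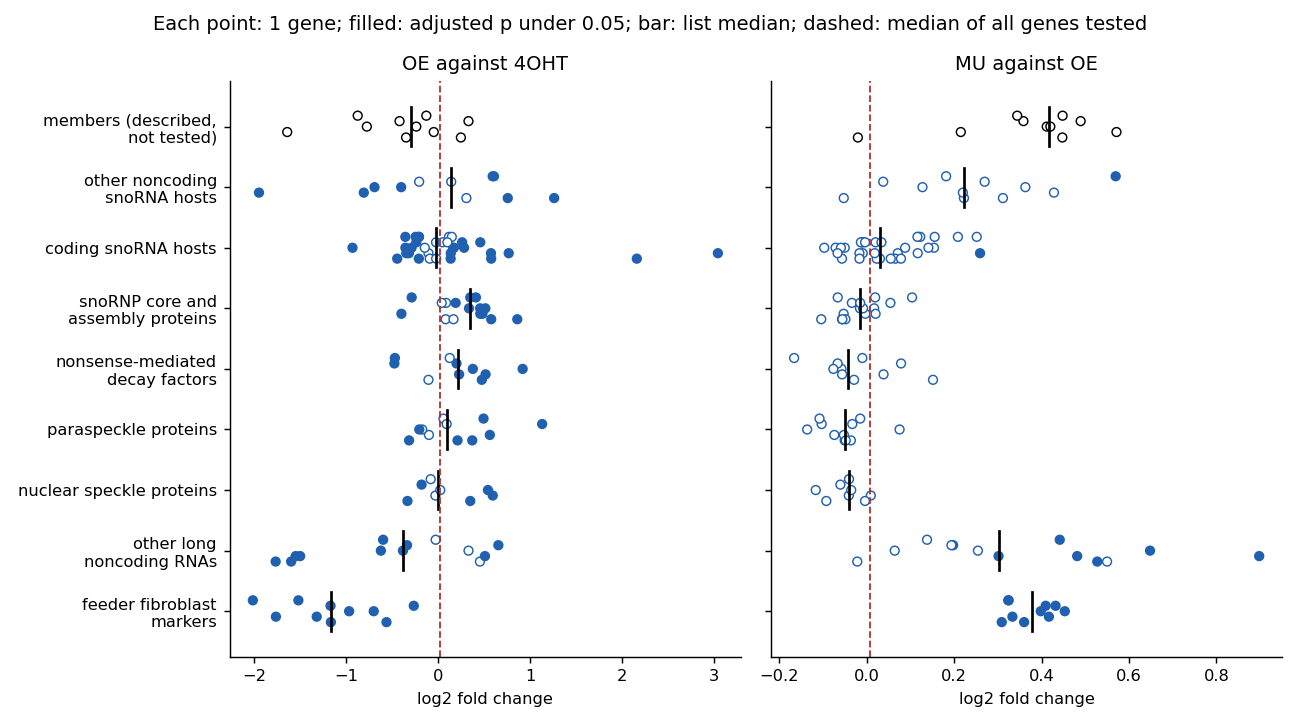
Log2 fold change (horizontal axes) of each gene in the 10-gene set, in the 7 listed pathway groups and in the fibroblast markers, for OE against 4OHT (left) and MU against OE (right), with filled points past an adjusted p of 0.05, a bar at each list median and a dashed line at the median of all genes tested. For MU against OE the list medians lie at 0.42 for the 10 genes, 0.38 for the fibroblast markers, 0.30 for other long noncoding RNAs and 0.22 for other noncoding snoRNA hosts, and between -0.05 and 0.03 for the 5 protein-coding lists.

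Genes for proteins that work with these RNAs were counted in the same way, beside 56.0% of all genes called in MU against 4OHT and 57.8% in OE against 4OHT. Of 16 core and assembly proteins of snoRNPs, the particles that snoRNAs form, 10 rose and 2 fell in MU and the same numbers in OE, relative to 4OHT, with median log2 fold changes of 0.38 and 0.34. Nop10, a core protein of box H/ACA particles, went from 34.1 ± 7.24 CPM to 59.9 ± 1.38 in MU and 61.9 ± 5.62 in OE (0.81 and 0.86, edgeR adjusted p = 4.1e-05 and 2.36e-05). Ruvbl2, an ATPase of the assembly machinery, went from 79.3 ± 4.56 CPM to 60.1 ± 2.02 and 60.2 ± 1.61 (-0.40 in both, edgeR adjusted p = 2.32e-05 and 2.5e-05). No gene of this list passed the edgeR test between MU and OE, with 0 past an unadjusted p of 0.05 and 0 called by DESeq2.

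Of 10 factors of nonsense-mediated decay, the pathway that removes spliced host RNAs, 5 rose and 2 fell in MU and 6 rose and 2 fell in OE against 4OHT, with medians of 0.20 and 0.22. Upf2, which bridges UPF1 to the exon junction complex, went from 83.0 ± 1.02 CPM to 149 ± 6.16 in MU and 157 ± 5.89 in OE (0.84 and 0.92, edgeR adjusted p = 4.62e-09 and 1.62e-09). Upf3b fell by 0.48 on the log2 scale in MU (edgeR adjusted p = 0.000659) and Upf3a fell by 0.47 in OE (edgeR adjusted p = 0.000111). Both genes fell in both groups, with -0.40 for Upf3a in MU and -0.47 for Upf3b in OE (edgeR adjusted p = 0.0005 and 0.000818). Between MU and OE 0 of the 10 passed the edgeR test, 1 had an unadjusted p under 0.05, and DESeq2 called 0.

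Paraspeckle and nuclear speckle proteins, the partners of Neat1 and Malat1, were mixed. Of 11 paraspeckle proteins, 5 rose and 3 fell in MU and 5 rose and 2 fell in OE against 4OHT. Hnrnph3 went from 31.9 ± 4.44 CPM to 65.0 ± 1.88 in MU and 69.9 ± 1.65 in OE (1.03 and 1.13, edgeR adjusted p = 1.04e-07 and 3.65e-08), and Nono, one of the core paraspeckle proteins, from 271 ± 15.2 CPM to 213 ± 6.55 and 218 ± 3.58 (-0.35 and -0.31, edgeR adjusted p = 3.51e-05 and 9.21e-05). Of 8 nuclear speckle proteins, 3 rose and 2 fell in each group against 4OHT. Srsf1, a splicing factor, went from 221 ± 12.6 CPM to 324 ± 11.0 in MU and 334 ± 6.18 in OE (0.55 and 0.60, edgeR adjusted p = 4.81e-07 and 2.09e-07). Srrm2, a scaffold of the speckle, went from 951 ± 127 CPM to 753 ± 2.19 and 756 ± 17.3 (-0.34 and -0.33, edgeR adjusted p = 0.00111 and 0.00118). Between MU and OE, 0 genes of either list passed the edgeR test and DESeq2 called 0, with an unadjusted p under 0.05 for 2 of the 11 and 1 of the 8. With only the 6 libraries compared, 2 of the 11 paraspeckle proteins were called lower in MU, where 3.54% of all genes were.

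Of 14 other long noncoding RNAs on a list, 13 were tested. In MU against 4OHT, 4 rose and 7 fell, and in OE against 4OHT, 2 rose and 8 fell, with median log2 fold changes of -0.14 and -0.38. Pvt1, the neighbour of Myc, went from 14.2 ± 1.56 CPM to 6.04 ± 0.25 in MU and 4.19 ± 0.10 in OE (-1.24 and -1.76, edgeR adjusted p = 1.76e-07 and 5.89e-09). Mir17hg, the host of a microRNA cluster, went from 7.63 ± 0.63 CPM to 13.8 ± 0.47 and 12.0 ± 1.22 (0.85 and 0.66, edgeR adjusted p = 5.17e-06 and 6.19e-05).

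Between MU and OE, 7 of the 13 passed the test, all higher in MU, with a median of 0.30. Meg3, an imprinted maternally expressed RNA, had the largest difference among them, at 76.7 ± 3.96 CPM in MU and 41.2 ± 1.39 CPM in OE, against 120 ± 2.75 CPM in 4OHT (0.90, edgeR adjusted p = 5.41e-07). The count was 2 to 7 when 1 library was left out, with 2 called without MU replicate 2, where 1.79% of all genes were called. The order of Meg3 and Pvt1 over the groups, highest in 4OHT and lowest in OE, was that of Malat1 and of the fibroblast markers, and the part of feeder RNA in it was not tested.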

How the data were processed

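The 9 libraries of messenger RNA were sequenced as read pairs, and the table that the authors deposited holds raw counts, as whole numbers, of 53801 genes. Per the labels and the study's methods, reads were cleaned with BBMap and Trimmomatic 0.39, aligned to GRCm38 with HISAT2 2.2.1 and quantified with StringTie 2.2.1. How whole counts were obtained, the strand setting and the handling of reads with several matches are not given in the sources used here. In every library values of exactly 4 counts were 1.35 to 1.84 times as frequent as the mean of 3 and 5, so counts are not single read pairs, and a fit on counts divided by 4 was an alternative.

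Genes were kept by filterByExpr (22452 genes), scaled by TMM and fitted with edgeR 4.0.16 (glmQLFit, glmQLFTest, R 4.3.3) in 1 model of the 3 groups. P-values were adjusted by Benjamini-Hochberg over all genes tested, with a threshold of 0.05, and the fit was tested on simulated data. The simulated data were read for MU against OE only. They do not cover the comparisons with 4OHT, where 56.0% (MU) and 57.8% (OE) of all genes were called. The 10 genes and the lists were chosen with earlier results of these data known. Besides the 10 genes, Prmt5 and the marker Zbtb16, the text names from each list the called gene that rose most and the one that fell most in each comparison, if it averaged 1 CPM or more, and the 3 genes nearest to Malat1, Neat1 and Gas5 of those averaging 10 CPM or more (log2 of CPM plus 0.5). Per-kilobase levels used the union of annotated exons in GENCODE vM21, which held 53620 of the 53801 identifiers. A count of 3, the floor used for a gene at 0, came to 0.00792 to 0.0395 CPM, and all 10 genes had at least 242 counts in every library. Promoter windows came from RefSeq. Alternatives were DESeq2 1.42.0, other scalings, no filter on low counts, only the 6 libraries compared, a replicate block, a threshold of 0.01 and leaving out each library.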

Additional observations from a re-analysis of the deposited data

How the results depend on the processing

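Over the 10 genes and 3 comparisons, 500 of 510 log2 fold changes under an alternative kept their sign and moved by less than the spread between replicates, 1 moved by more and 9 changed sign, none of them for Malat1, Neat1, Snhg1, Snhg6, Snhg12 or Zfas1. The changes of sign were in differences near 0: for MU against 4OHT, Gas5 ran from -0.0648 to 0.218 and Snhg8 from -0.233 to 0.296 when 1 library was left out, both lowest without 4OHT replicate 3. For OE against 4OHT, Snhg5 was 0.0315 with upper quartile scaling, 0.0408 with total counts only and from -0.151 to 0.0688 without 1 library. For MU against OE, Snhg3 was 0.00317 with total counts only, 0.0156 without a filter and from -0.157 to 0.120 without 1 library. Scaling by total counts moved the median of all genes for MU against 4OHT from 0.04 to 0.16. The number of genes past the threshold for MU against OE, 712 in the reported fit, was 1626 with only the 6 libraries compared, 1140 with DESeq2, 388 at an adjusted p of 0.01 and 402 to 1206 without 1 library, and for the noncoding snoRNA hosts outside the 10 genes it was 2 with only the 6 libraries compared and 1 to 2 without 1 library. The cause was not tested. For the 10 genes this count was 5 with DESeq2 and 4 with the replicate block, against 2. Whether same-numbered samples of different groups belong together is not given in the sources used here. The correlation of same-numbered deviations from the group means ran from -0.022 to 0.128 over 10616 genes. For samples with unlike numbers it ran from -0.129 to 0.0986. The replicate block gave 12443, 12807 and 674 genes past the threshold in the 3 comparisons, against 12571, 12967 and 712. Splits into higher and lower could turn while the total stayed within 1.5 times the reported count, as for the 10 genes and the coding snoRNA hosts in MU against 4OHT. Of the counts of called genes, markers and list members under an alternative, 653 stayed within 1.5 times the reported count and 49 did not, of which all but that of the 10 genes for OE against 4OHT without 4OHT replicate 3 (8, against 5) were for MU against OE. All 10 genes had at least 242 counts in every library, while 27 of the 32 snoRNA genes inside the hosts had at most 3. The cause of the low snoRNA counts was not tested.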
